A study of Oryctolagus cuniculus with 16 samples.

Results

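Transcription factors that direct the formation of red cells and platelets, together with the receptor for erythropoietin, were followed in femoral head tissue of a rabbit model of Perthes disease. A list of 10 genes was matched by symbol to the deposited gene table of 20255 genes, and 9 were found. These were the DNA-binding factors *GATA1*, *GATA2*, *TAL1*, *KLF1*, *NFE2*, *GFI1B*, *MYB* and *BCL11A* and the receptor gene *EPOR*. Below, all 9 genes are called factors for short, although *EPOR* encodes a receptor and not a transcription factor. *ZFPM1*, which encodes the GATA1 cofactor FOG1, was not analysed here. The Perthes group comprised 5 rabbits in which the femoral neck had been ligated and the ligamentum teres transected at 8 weeks of age, which obstructs the blood flow to the epiphysis. The control group comprised 3 wild-type rabbits (WT in the labels). According to the paper, wild-type rabbits were bought and the model was made by this surgery. The labels nevertheless give WT and Perthes' disease as genotypes, and no allele or agent other than the surgery is named for either group. The interval between surgery and tissue collection, and whether the controls had a sham operation, are not given in the sources used here. Femoral head tissue contains bone, cartilage and marrow, and the RNA of all these cells was sequenced together.

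The marrow of the femoral head makes red cells and platelets from a common progenitor. GATA2, TAL1 and MYB act early, in stem cells and dividing progenitors. GATA1 then takes over many binding sites of GATA2 as erythroid cells and megakaryocytes mature, a replacement known as the GATA switch. TAL1 binds DNA beside GATA1 in a complex that is held together by LMO2 and LDB1, and KLF1, NFE2 and GFI1B act further along in the same lineages. Erythropoietin signals through EPOR, the kinase JAK2 and the factors STAT5A and STAT5B to keep erythroid progenitors alive.

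The libraries held from 26757087 to 29461482 expected counts. In the following, CPM denotes counts scaled to the size of each library after correction by the trimmed mean of M-values (TMM). Of 15305 genes tested with edgeR's quasi-likelihood test, 1357 (8.87%) were lower and 951 (6.21%) higher in Perthes rabbits at a Benjamini-Hochberg adjusted p below 0.05. Lower genes thus made up 58.8% of the calls, or 71.5% when library totals replaced the TMM factors. Collagen genes of bone and cartilage were abundant in all libraries, with *COL1A1* at 91194 ± 41923 CPM (n = 5, SD) in Perthes rabbits and 81915 ± 9037 CPM (n = 3, SD) in controls.

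All 9 factors had lower levels in each Perthes rabbit than in every control. The log2 fold changes ran from -3.27 for *GATA1* to -2.34 for *GATA2*, with a median of -2.62, against a median of 0.02 over all tested genes. At an adjusted p below 0.05 from edgeR, 4 of the 9 fell, namely *GATA2*, *TAL1*, *BCL11A* and *EPOR*, beside the 8.87% of all genes that were called lower. The other 5, *GATA1*, *NFE2*, *GFI1B*, *MYB* and *KLF1*, did not pass, although 4 of them had larger fold changes than any of the 4 that did. All 9 had an unadjusted p below 0.05, from 6.16e-04 to 0.0453, and 0 of the 9 were called higher by edgeR or by DESeq2 (0 at an unadjusted p below 0.05 with either tool). Over the whole table, 4883 of the 15305 tested genes had an unadjusted p below 0.05 in edgeR's test, in either direction. Across the table, 13.9% of the tested genes likewise had every Perthes rabbit below every control. The number of factors called depended on single rabbits. It was 9 without Perthes rabbit 2, 1 without Perthes rabbit 3 or 5, 3 without Perthes rabbit 4, and 0 without control rabbit 1 or 2. Calls over the whole table, in either direction, numbered 2308 with all 8 rabbits. They were 2569, 1031, 2690 and 901 without Perthes rabbits 2, 3, 4 and 5. Without control rabbit 1 they numbered 257. Without control rabbit 2 they numbered 0, so the 0 there applies to every gene and list below. *GATA2* was the factor that kept its call without Perthes rabbit 3 or 5. In tissue sequenced in bulk, fewer cells of a type and less RNA per cell cannot be told apart.

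**Figure D1:**
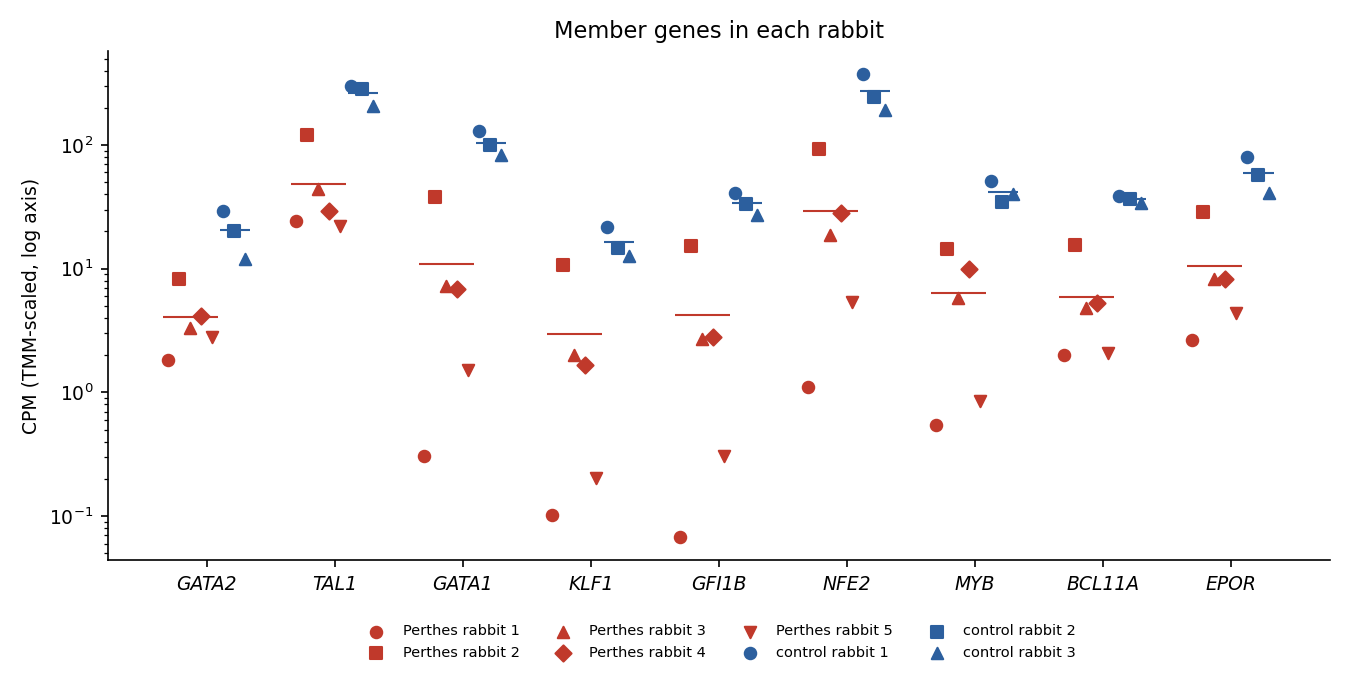
CPM of the 9 factors (x axis) in each of the 8 rabbits, on a logarithmic y axis, with red symbols for the 5 Perthes rabbits, blue symbols for the 3 controls and horizontal lines at the group means. The red symbols lie below all blue symbols for every gene, and the red square of Perthes rabbit 2 is the highest of the Perthes group each time.

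Of the early factors, *GATA2* (gene 100008832) had 1.82, 8.20, 3.34, 4.11 and 2.79 CPM in Perthes rabbits 1 to 5 and 29.1, 20.3 and 12.001 CPM in control rabbits 1 to 3. Rabbit 2 was the highest of the Perthes group, and even so it stayed below the lowest control. The mean fell to 4.05 ± 2.46 CPM (n = 5, SD) in the Perthes group from a control mean of 20.5 ± 8.54 CPM (n = 3, SD), a log2 fold change of -2.34 (edgeR adjusted p = 0.0153, standard error 0.46). *TAL1* (gene 100340762) encodes a basic helix-loop-helix protein needed for all blood formation. Its levels were 24.2, 121, 43.9, 29.02 and 22.1 CPM in the Perthes rabbits and 299, 284 and 205 CPM in the controls. The controls were tightly grouped in comparison, and the Perthes group again extended upward through rabbit 2. The log2 fold change was -2.45 (edgeR adjusted p = 0.0210, standard error 0.54). *GATA2* and *TAL1* had the smallest spread among the Perthes rabbits of the 9 factors, with 4.50-fold and 5.50-fold between the highest and the lowest rabbit.

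*GATA1* (gene 100344606), the central activator of erythroid and megakaryocytic genes, had 0.304, 38.1, 7.30, 6.84 and 1.53 CPM in Perthes rabbits 1 to 5. The controls had 129, 99.8 and 83.5 CPM. The groups did not overlap, but the Perthes rabbits differed from each other by 125-fold and the controls by 1.54-fold. The mean was 10.8 ± 15.6 CPM (n = 5, SD) against 104 ± 23.0 CPM (n = 3, SD), and the log2 fold change of -3.27 had a standard error of 1.08 (adjusted p = 0.0708 from edgeR). In Perthes rabbit 1 the level rested on 9 counts, compared with 2511 to 3609 counts in the controls. Without Perthes rabbit 2 the log2 fold change was -4.71 (adjusted p = 0.00876 from edgeR).

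*KLF1* (gene 100342866) encodes an activator of the adult beta-globin gene. It had 0.101, 10.7, 2.02, 1.67 and 0.204 CPM in the Perthes rabbits and 21.7, 14.8 and 12.8 CPM in the controls. Perthes rabbit 2 had 0.841 of the level in the lowest control, the closest approach of the groups among the 9 genes. *KLF1* also had the highest adjusted p of the factors, with a log2 fold change of -2.48 (edgeR adjusted p = 0.147, standard error 1.07). *GFI1B* (gene 100357887) encodes a zinc finger repressor of erythroid and megakaryocytic cells. Its levels were 0.0675, 15.4, 2.68, 2.80 and 0.306 CPM in the Perthes rabbits and 41.2, 33.6 and 27.1 CPM in the controls. This was the widest range among Perthes rabbits, 228-fold, and its lower end was set by 2 counts in rabbit 1, where *KLF1* had 3. The log2 fold change of *GFI1B* was -3.00 (edgeR adjusted p = 0.1001, standard error 1.12). Both genes passed without Perthes rabbit 2, *KLF1* at -4.04 (adjusted p = 0.0132 from edgeR) and *GFI1B* at -4.54 (adjusted p = 0.0122 from edgeR).

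*NFE2* (gene 100340311) encodes the large subunit of a factor required for platelet release that also acts on globin genes. The Perthes rabbits had 1.11, 93.3, 18.7, 28.0 and 5.34 CPM and the controls 375, 246 and 192 CPM. The highest Perthes rabbit had 0.487 of the level in the lowest control. The log2 fold change was -3.21 (edgeR adjusted p = 0.0652, standard error 1.03), and it was -4.35 without Perthes rabbit 2 (adjusted p = 0.0140 from edgeR).

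*MYB* (gene 100347664) keeps blood progenitors dividing and declines as they mature. It had 0.540, 14.4, 5.80, 10.0005 and 0.851 CPM in Perthes rabbits 1 to 5 and 51.4, 34.3 and 40.5 CPM in the controls. Perthes rabbits 2 and 4 were the highest, whereas rabbits 1 and 5 were below 1 CPM. The log2 fold change of -2.73 had a standard error of 0.86 (adjusted p = 0.0609 from edgeR). *BCL11A* (gene 100355522) encodes a zinc finger repressor of fetal globin genes that is also required in B lymphocytes. It had 1.992, 15.4, 4.77, 5.31 and 2.08 CPM in the Perthes rabbits and 38.7, 36.3 and 33.8 CPM in the controls. The controls differed by 1.15-fold, the narrowest control range of the 9 genes. *BCL11A* fell with a log2 fold change of -2.62 (edgeR adjusted p = 0.0228, standard error 0.60). *HBG1*, the gamma-globin gene of the table, had at most 0.107 CPM in any library and was not tested.

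*EPOR* (gene 100355350), the receptor that responds to erythropoietin, had 2.63, 28.9, 8.29, 8.33 and 4.35 CPM in the Perthes rabbits. The controls had 80.6, 57.1 and 40.8 CPM. The mean fell to 10.5 ± 10.6 CPM (n = 5, SD) in the Perthes group from a control mean of 59.5 ± 19.98 CPM (n = 3, SD), with a log2 fold change of -2.50 (edgeR adjusted p = 0.0357, standard error 0.66). The call was lost without Perthes rabbit 3, 4 or 5 and without control rabbit 1 or 2.

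**Figure D2:**
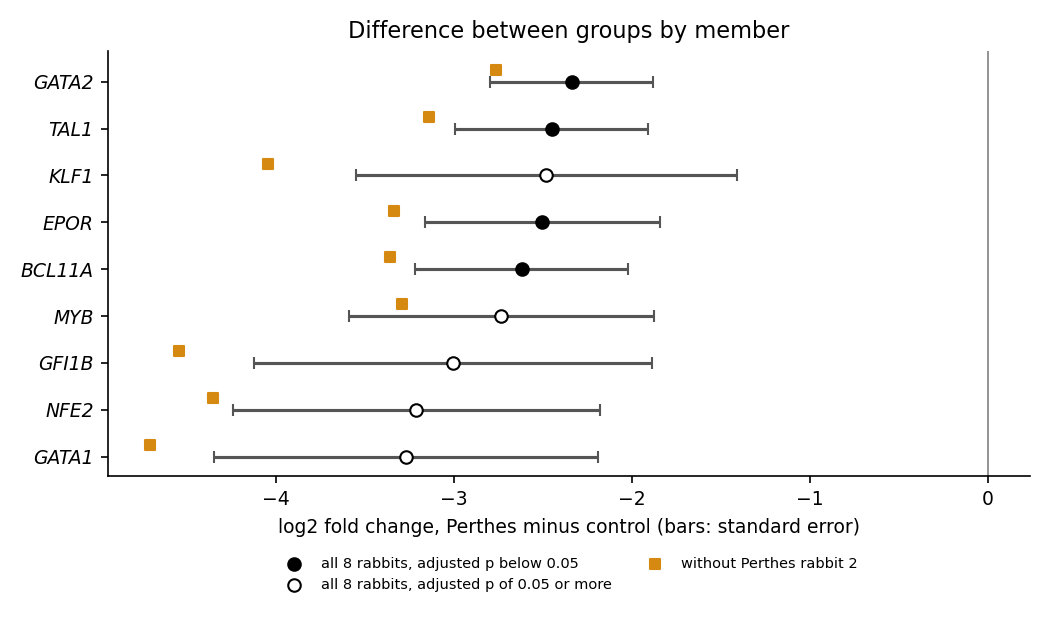
Log2 fold change of each factor between Perthes and control rabbits (x axis) with its standard error, filled circles marking an adjusted p below 0.05, and orange squares giving the value without Perthes rabbit 2. The values of all 8 rabbits lie between -3.27 and -2.34, the error bars are longest for *GATA1*, *GFI1B*, *KLF1* and *NFE2*, and every square lies to the left of its circle.

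The 5 Perthes rabbits were ordered alike by most of the factors. Rabbit 2 had the highest level of all 9 genes, from 34.4% of the control mean for *MYB* to 65.4% for *KLF1*. Rabbits 3 and 4 retained medians of 13.2% and 11.0% over the 9 genes. Rabbit 1 had the lowest level of 8 genes and rabbit 5 that of *TAL1*. Their medians over the 9 genes were 1.28% and 2.02%. The factors differed most in rabbits 1 and 5. *GATA2* and *TAL1* retained 8.91% and 9.21% of the control mean in rabbit 1 and 13.6% and 8.40% in rabbit 5, whereas *GATA1* retained 0.292% and 1.47% and *GFI1B* 0.199% and 0.901%. *BCL11A* and *EPOR* lay between, at 5.49% and 4.43% in rabbit 1. They were closer together in rabbit 2, where *GATA2* stood at 40.05% and *GATA1* at 36.6%.

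**Figure D3:**
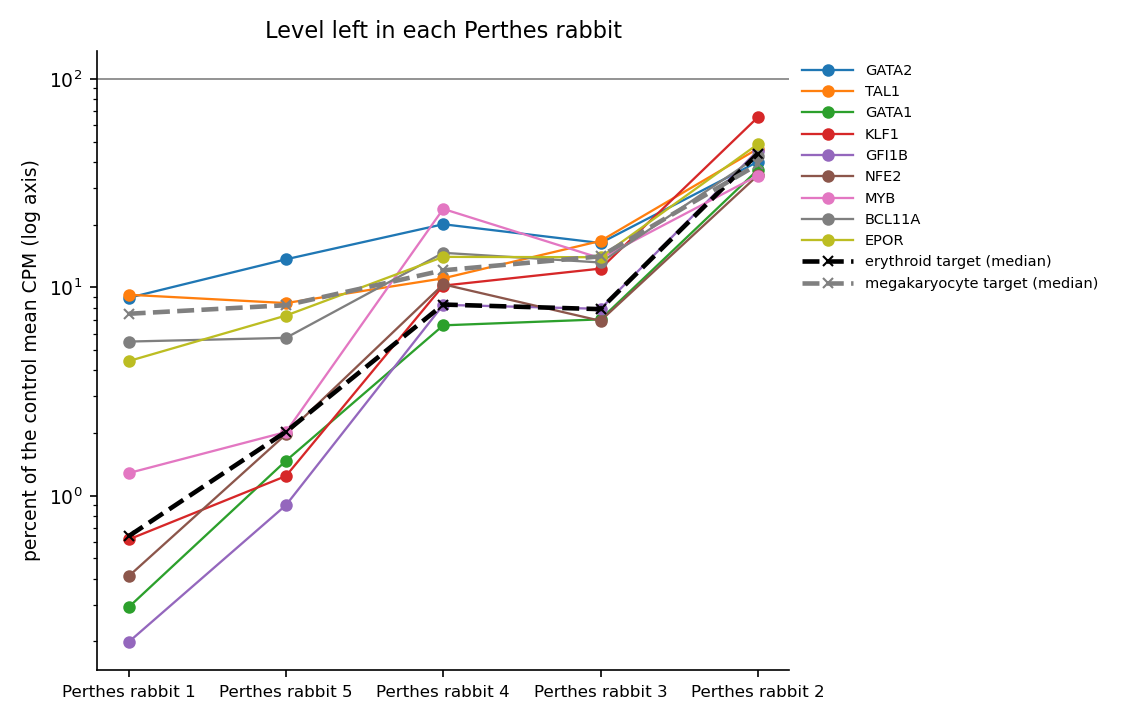
Level of each factor in the 5 Perthes rabbits (x axis) as a percentage of the control mean CPM on a logarithmic y axis, with broken lines for the median over the tested erythroid and megakaryocyte target genes and a horizontal line at 100. The lines lie close together in rabbit 2 and spread in rabbits 1 and 5, from 0.199% for *GFI1B* to 9.21% for *TAL1* in rabbit 1.

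The balance of *GATA1* and *GATA2* was compared within libraries, where the scaling factor cancels. The ratio of *GATA1* CPM to *GATA2* CPM was 0.167, 4.65, 2.19, 1.66 and 0.549 in Perthes rabbits 1 to 5 and 4.43, 4.91 and 6.96 in the controls. As transcript lengths were not used, only differences in this ratio between rabbits can be read, not which gene was more abundant. The ratio in Perthes rabbit 2 lay inside the control range, and those of the other 4 Perthes rabbits below it. The mean log2 ratio was 0.13 ± 1.88 (SD, n = 5) in Perthes rabbits and 2.41 ± 0.34 (SD, n = 3) in controls. This difference of -2.29 did not pass 0.05 in a two-sided exact permutation test over the 56 divisions of the rabbits (p = 0.0714, where 0.0357 is the smallest possible).

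**Figure D4:**
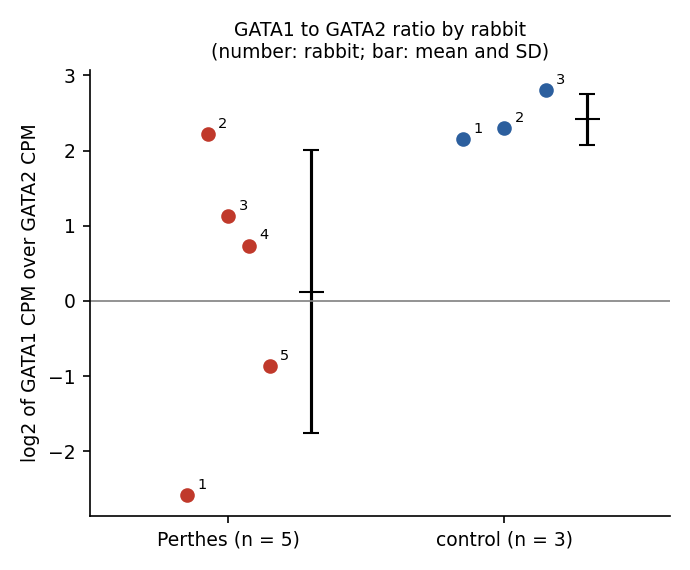
Log2 of the ratio of *GATA1* CPM to *GATA2* CPM (y axis) in each rabbit of both groups, with the rabbit number beside each point and the mean and SD at the right of each group. The controls lie between 2.15 and 2.80, and Perthes rabbits extend from -2.58 in rabbit 1 to 2.22 in rabbit 2.

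Partner transcription factors and chromatin cofactors of the 9 genes were then counted. Of 28 listed, 22 were matched by symbol and tested, 10 fell and 0 rose in edgeR's test (11 lower and 1 higher at an unadjusted p below 0.05, and 10 lower and 0 higher with DESeq2). The median log2 fold change was -0.62, smaller in size than those of all 9 factors above. Of all tested genes, 8.87% were lower and 6.21% higher in edgeR's test, and 4883 of 15305 had an unadjusted p below 0.05. DESeq2 called 1916 genes lower and 1720 higher. These numbers are the background for every list here. *KLF3*, a relative of KLF1 that represses transcription, fell to 78.8 ± 9.95 CPM (n = 5, SD) in the Perthes group from a control mean of 175 ± 20.2 CPM (n = 3, SD), a log2 fold change of -1.15 (edgeR adjusted p = 0.0118, standard error 0.16). *FOXO3*, which acts in oxidative stress defense of erythroid cells, fell by 1.04 on the log2 scale (adjusted p = 0.0135 from edgeR), and *FLI1*, an ETS factor of megakaryocytes and vessels, by 1.01 (adjusted p = 0.0148 from edgeR). Perthes rabbit 2, with 85.8 CPM of *KLF3* and 35.9 CPM of *FLI1*, lay inside the range of the other Perthes rabbits for these genes, and it was the highest for *FOXO3* at 174 CPM. The count was 6 without Perthes rabbit 3 or 5, 1 without control rabbit 1 and 0 without control rabbit 2.

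Of the genes of the erythropoietin receptor pathway and related cytokine receptors, 13 of 17 listed were tested, 5 fell and 0 rose in edgeR's test (7 lower and 0 higher at an unadjusted p below 0.05, and 6 lower and 0 higher with DESeq2). The median log2 fold change was -0.57. *BCL2L1*, a survival gene, fell to 59.8 ± 18.0 CPM (n = 5, SD) in the Perthes group from a control mean of 147 ± 16.5 CPM (n = 3, SD), a log2 fold change of -1.30 (edgeR adjusted p = 0.0134, standard error 0.23). *PIM1*, a kinase gene induced by STAT5, fell by 1.76 (adjusted p = 0.0136 from edgeR), and *CISH*, a STAT5-induced inhibitor of the pathway, by 0.74 (adjusted p = 0.0159 from edgeR), both on the log2 scale. All 3 are active in many cell types outside the marrow. The count was 2 without Perthes rabbit 5, 3 without Perthes rabbit 3 or 4 or without control rabbit 3, and 0 without control rabbit 1 or 2.

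Of 40 listed red cell genes that the factors are known to regulate, 31 were matched and 30 tested, and 9 fell and 0 rose in edgeR's test. In each of the 30 every Perthes rabbit lay below every control, beside 13.9% of the whole table. The median log2 fold change was -2.95, and 21 of the 30 did not pass (30 lower and 0 higher at an unadjusted p below 0.05). *SLC25A37*, the mitochondrial iron importer, fell to 22.3 ± 20.1 CPM (n = 5, SD) in the Perthes group from a control mean of 163 ± 7.503 CPM (n = 3, SD), a log2 fold change of -2.87 (edgeR adjusted p = 0.0192, standard error 0.62). The membrane genes *GYPC* and *EPB41* fell by 2.07 and 2.58 on the log2 scale (adjusted p = 0.0192 and 0.0251 from edgeR). The median level of the 30 genes in Perthes rabbits 1 to 5 was 0.640%, 43.8%, 7.86%, 8.27% and 2.03% of the control mean, beside 0.292%, 36.6%, 7.02%, 6.57% and 1.47% for *GATA1*. With DESeq2 21 were called lower and 0 higher. With edgeR 29 were lower without Perthes rabbit 2, 1 without rabbit 3, 4 without rabbit 4 and 2 without rabbit 5. Without control rabbits 1, 2 and 3 it was 0, 0 and 3.

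Of 22 listed platelet and megakaryocyte genes, 18 were matched and tested, and 7 fell and 1 rose in edgeR's test, with a median log2 fold change of -2.69 (12 lower and 2 higher at an unadjusted p below 0.05, and 10 lower and 2 higher with DESeq2). *CLEC1B*, a platelet receptor gene, fell to 1.26 ± 0.709 CPM (n = 5, SD) in the Perthes group from a control mean of 10.3 ± 6.05 CPM (n = 3, SD), a log2 fold change of -3.03 (edgeR adjusted p = 0.0122, standard error 0.48). *PDE5A* fell by 1.24 (adjusted p = 0.0133 from edgeR) on the log2 scale, and *SELP*, the P-selectin gene of platelets and vessels, fell with a log2 fold change of -2.67 (edgeR adjusted p = 0.0165). The gene that rose was *LTBP1*, which encodes a matrix protein that stores TGF-beta and is made by many stromal cells, with a log2 fold change of 1.15 (edgeR adjusted p = 0.0301, standard error 0.29). *VWF*, also on this list, had a larger log2 fold change of 1.59 but did not pass (edgeR adjusted p = 0.0606). Its mean was 51.5 ± 30.8 CPM (n = 5, SD) in Perthes rabbits and 17.1 ± 0.937 CPM (n = 3, SD) in controls. The number that fell was 12 without Perthes rabbit 2, 4 without Perthes rabbit 3, 1 without control rabbit 1 and 0 without control rabbit 2. *LTBP1* was not called without Perthes rabbit 1, 3 or 5 or control rabbit 1 or 2, and 2 genes were called higher without Perthes rabbit 4.

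**Figure D5:**
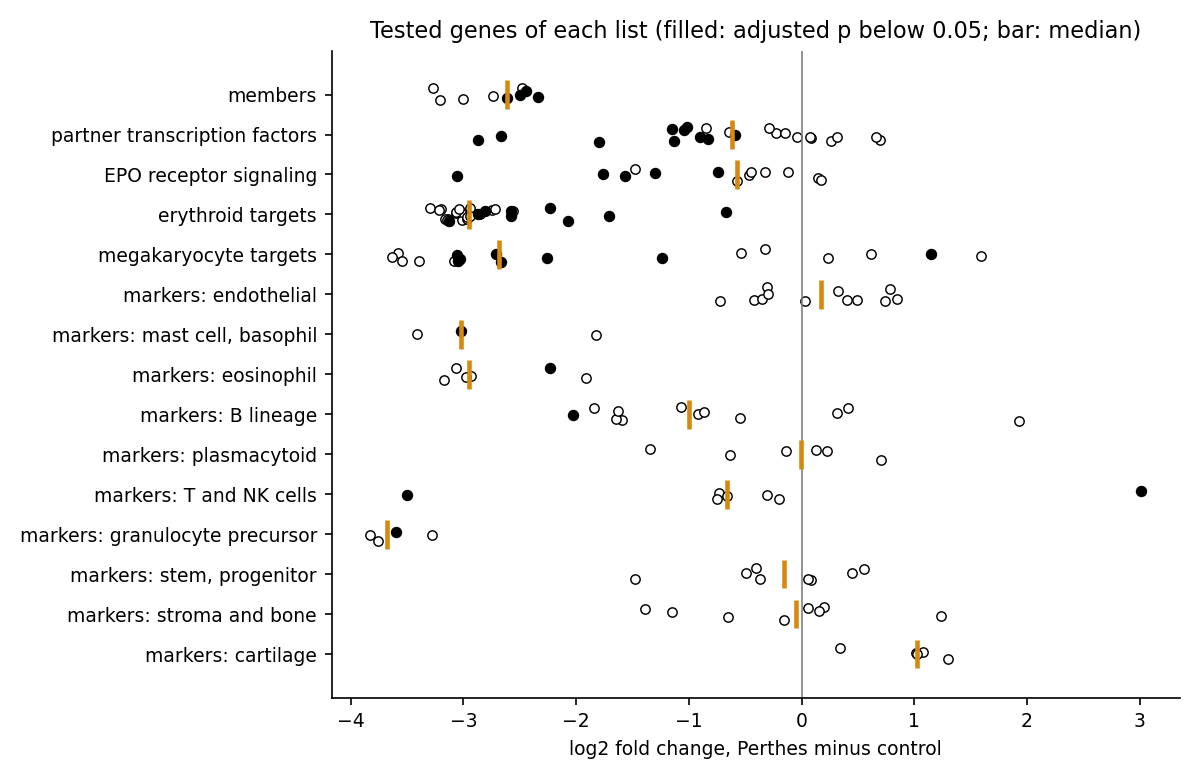
Log2 fold change (x axis) of every tested gene in each list (y axis), with filled circles for an adjusted p below 0.05 from edgeR and an orange bar at the median. The 9 factors and the erythroid and megakaryocyte targets have medians of -2.62, -2.95 and -2.69, and the endothelial markers have a median of 0.18.

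Several of the 9 factors are used outside the red cell and platelet lineages, so markers of those cells are given beside them. *GATA2* and *TAL1* are also made by endothelial cells. Of 13 endothelial markers 12 were tested and 0 were called in either direction by edgeR (1 lower and 2 higher at an unadjusted p below 0.05, and the same numbers with DESeq2), with a median log2 fold change of 0.18. Their summed level was 335 to 466 CPM in Perthes rabbits and 390 to 456 CPM in controls, and these ranges overlapped. Taken singly, 0 of the 12 markers had every Perthes rabbit below every control, beside 13.9% of all tested genes. In 3 of the 12 every Perthes rabbit lay above every control. The share of all genes in that direction was not counted, so the 3 cannot be set against it. The part of endothelial cells in the levels of *GATA2* and *TAL1* was not tested. *PECAM1* and *CDH5*, the most abundant, had log2 fold changes of -0.30 and 0.40 (adjusted p = 0.421 and 0.219 from edgeR), and that of *PECAM1* changed sign to 0.01 without control rabbit 1.

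*GATA2* is also made by mast cells and basophils and *GATA1* also by eosinophils, whose markers had lower summed levels in each Perthes rabbit than in every control. Of 8 mast cell and basophil markers besides *GATA2*, 4 were matched and 3 tested, and *FCER1A* fell (log2 fold change -3.02, adjusted p = 0.0260 from edgeR). All 3 had an unadjusted p below 0.05, and 3 were called lower with DESeq2 and also by edgeR without Perthes rabbit 2. Their summed level was 1.38 to 26.9 CPM in Perthes rabbits and 43.8 to 138 CPM in controls. Of 7 eosinophil markers 6 were tested, with a median log2 fold change of -2.95, and *CCR3* fell (log2 fold change -2.23, adjusted p = 0.0423 from edgeR). The level of *CCR3* was low, at 0.0340 to 0.524 CPM in Perthes rabbits and 0.740 to 1.61 CPM in controls. All 6 markers had an unadjusted p below 0.05, and 3 were called lower with DESeq2 and 6 by edgeR without Perthes rabbit 2. Their summed level was 1.96 to 377 CPM in Perthes rabbits, highest in rabbit 2, and 500 to 1266 CPM in controls. *FCER1A* lost its call without Perthes rabbit 3 or 5 or control rabbit 1 or 2, and *CCR3* without any 1 rabbit except Perthes rabbit 2. The part of these cells in the levels of *GATA1* and *GATA2* was not tested.

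*BCL11A* is also made by B lymphocytes and plasmacytoid dendritic cells. Of the 13 rows of B-lineage markers 12 were tested, and *MS4A1* fell (log2 fold change -2.03, adjusted p = 0.04999 from edgeR). There were 4 lower and 1 higher at an unadjusted p below 0.05, 2 lower and 1 higher with DESeq2, and 4 lower with edgeR without Perthes rabbit 2. The summed level of this list was 83.7 to 130 CPM in Perthes rabbits and 87.3 to 139 CPM in controls, and these ranges overlapped. *MS4A1* was not called without Perthes rabbit 1, 3 or 5 or without any 1 of the controls. Of 8 plasmacytoid dendritic cell markers 6 were tested, and 0 were called by edgeR (1 lower and 1 higher at an unadjusted p below 0.05, and 0 and 1 with DESeq2), with a summed level of 258 to 321 CPM against 197 to 337 CPM. Their most abundant genes, *RUNX2* and *TCF4*, which other cells of bone express too, had log2 fold changes of -0.14 and 0.71 (adjusted p = 0.753 and 0.0736 from edgeR). The part of these cells in the level of *BCL11A* was likewise not tested.

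The genes with profiles most like those of 4 factors were sought by the root-mean-square difference of log2 CPM over the 8 rabbits, after each profile was centred on its mean. For *GATA1* these were *EPB42*, *TSPAN33* and *ANK1*, with differences of 0.13, 0.16 and 0.18, where the profile of *GATA1* itself varied with an SD of 2.87. *EPB42* and *ANK1* encode proteins of the red cell membrane skeleton. For *GATA2* they were *AURKB*, *NEK2* and *MYBL2*, with differences of 0.18, 0.19 and 0.19 and a profile SD of 1.33. *AURKB* and *NEK2* encode mitotic kinases and *MYBL2* a factor of dividing cells. For *BCL11A* they were *SLC16A10*, *TFDP2* and *MKRN1*, with differences of 0.13, 0.14 and 0.16. For *MYB* the nearest genes, *AOX4*, *YPEL4* and *CACNA1B*, were more distant, with differences of 0.38, 0.44 and 0.45 and a profile SD of 2.28. All 8 libraries and the difference between the groups are shared by these profiles.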

How the data were processed

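Total RNA from femoral heads of 5 Perthes and 3 control rabbits had been depleted of ribosomal RNA and made into directional libraries. The authors filtered reads with SOAPnuke, mapped them with HISAT2 2.0.4 and obtained gene values by RSEM 1.1.17 with HTSeq 1.99.2 (versions from the submitters' processing notes). Whether counting used the strand is not given in the sources used here. The authors deposited expected counts per gene without normalization, and these were rounded here, since up to 10.7% of the values per library had decimals. Another 8 columns repeat the 8 used and were left out, and the small RNA table was not used. One control is numbered 3 in its code and 2 in its title, so the code was followed here.

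Groups were compared with edgeR 4.0.16 in R 4.3.3 (TMM factors, filterByExpr, quasi-likelihood F-test, Benjamini-Hochberg adjustment over 15305 genes). Standard errors are the log2 fold change divided by the square root of F. Log2 CPM used a prior count of 2. The ratio was tested by exact permutation with scipy 1.17.1. The fits were tested on simulated data. All 9 gene identifiers matched their symbols in a RefSeq table of another assembly, from which no coordinates were taken. The labels do not say more of the replicates than that they are separate samples, and p-values measure the spread between these. Depth limits the lowest values, which for the factors went down to 2 counts in Perthes rabbit 1.

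The members and gene lists were chosen with earlier results of these data known. Named in addition to the 9 factors were, from each list, up to 3 called genes per direction with the lowest adjusted p or, where none was called, the 2 most abundant, and the 3 genes nearest in profile to *GATA1*, *GATA2*, *MYB* and *BCL11A* that have a symbol. *HBG1*, *VWF* and *KIT* were named after their values were seen. Alternatives were DESeq2 1.42.0, other scalings and filters, other thresholds, leaving out each rabbit, and a block on the replicate number.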

Additional observations from a re-analysis of the deposited data

Results flagged for a closer look

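Perthes rabbit 2 lay far above the other Perthes rabbits in 6 of the 9 factors, by Dixon's ratio of the gap to the range with a 95% critical value of 0.71 for 5 samples. The values were 121 CPM of *TAL1*, 38.1 CPM of *GATA1*, 10.7 CPM of *KLF1*, 15.4 CPM of *GFI1B*, 15.4 CPM of *BCL11A* and 28.9 CPM of *EPOR*. Chance flags about 1 in 20 groups, and the 6 genes come from the same library, so they do not count as separate flags. On the log2 CPM scale 0 of the 9 factors passed this value. Of the 14 other gene lists, 7 also had their highest summed level of the Perthes group in this rabbit. These were the erythroid targets at 23137 CPM, the megakaryocyte targets at 971 CPM, the receptor pathway at 585 CPM, the granulocyte precursors at 737 CPM, the eosinophils at 377 CPM, the mast cells and basophils at 26.9 CPM and stroma and bone at 243598 CPM.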

How the results depend on the processing

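All 123 values of the 9 factors under the alternatives kept a negative log2 fold change, and the calls were less stable than the direction. With DESeq2 7 factors were called lower, with *GATA1*, *NFE2* and *MYB* added at -3.28, -3.22 and -2.73, and with library totals *MYB* was added at -2.87. Over the whole table, 1916 genes were called lower with DESeq2 and 1705 with library totals, against 1357 in the main fit. At a log2 fold change beyond 2 in size and an adjusted p below 1e-05, 0 factors were called by edgeR and 0 by DESeq2 (the latter chosen after seeing the data), and so were 0 genes of the partner, receptor pathway, erythroid and megakaryocyte lists by edgeR, whose smallest adjusted p for any gene was 0.0118. With DESeq2 the erythroid list had 21 genes lower and the megakaryocyte list 10 lower and 2 higher.

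The replicate number as a block left 0 of the 9 factors called, of which 6 had an unadjusted p below 0.05, and 0 genes of each list, as of the whole table. Only the numbers 1 to 3 occur in both groups, so the comparison there rested on 3 Perthes and 3 control rabbits. Perthes rabbits 4 and 5 did not contribute to it. An effect of the block itself cannot be told apart from the smaller number of rabbits. *GATA2*, *TAL1*, *BCL11A* and *EPOR* lost their calls there at -2.33, -2.35, -2.76 and -2.65. Whether same-numbered rabbits share more than the number is not given in the sources used here. The deviations of their log2 CPM from the group means had correlations of -0.317, 0.161 and -0.238, and 1 of 3 Perthes rabbits correlated best with the control of its own number. In the block, the difference in the *GATA1* to *GATA2* ratio was -2.16, as the mean over 3 same-numbered pairs.

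Leaving out 1 rabbit at a time gave 0 to 9 factors called lower, 0 to 10 partners, 0 to 7 receptor pathway genes, 0 to 29 erythroid genes, 0 to 12 megakaryocyte genes lower and 0 to 2 higher. The log2 fold changes ranged from -2.76 to -1.995 for *GATA2*, -3.14 to -2.25 for *TAL1*, -4.71 to -2.95 for *GATA1*, -4.04 to -2.16 for *KLF1*, -4.54 to -2.68 for *GFI1B*, -4.35 to -2.90 for *NFE2*, -3.29 to -2.43 for *MYB*, -3.36 to -2.39 for *BCL11A* and -3.33 to -2.22 for *EPOR*. The ratio difference ranged from -2.81 to -1.61, with too few divisions of 7 rabbits to reach 0.05. The values that changed sign belonged to genes with no call. *CD34* had -0.0198 with library totals, -0.039 with the block and -0.068 to 0.28 without 1 rabbit. *COL2A1* had -0.18 with the block and -0.044 to 0.52 without 1 rabbit. Without 1 rabbit *PECAM1* ranged from -0.47 to 0.010, *RUNX2* from -0.41 to 0.077 and *COL1A1* from -0.070 to 0.33. The cause of these shifts was not tested. A filter of 10 counts in every library removed *GATA1*, *KLF1* and *GFI1B*.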

Other observations

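Markers of blood stem and progenitor cells other than the 9 factors were not called in either direction by edgeR in the main fit, and 1 was called lower without Perthes rabbit 2. All 8 were tested, with 0 called by edgeR (2 lower and 0 higher at an unadjusted p below 0.05, and 1 and 0 with DESeq2), a median log2 fold change of -0.16 and a summed level of 93.8 to 130 CPM in Perthes rabbits against 133 to 141 CPM in controls. These summed ranges did not overlap, with each Perthes rabbit below every control. Taken singly, 0 of the 8 markers had every Perthes rabbit below every control, beside 13.9% of all tested genes. In 1 of the 8 every Perthes rabbit lay above, a direction for which the share of all genes was not counted. The most abundant were *CD34*, which vessels express too, at 0.08 and *SPINK2* at -0.49 (adjusted p = 0.836 and 0.143 from edgeR). Of the 8 markers 4 had a negative log2 fold change, among them *KIT* at -1.48 (adjusted p = 0.0923 from edgeR). Of 8 markers of granulocyte precursors 4 were tested, and *CEBPE*, a factor of late granulocyte maturation, fell (log2 fold change -3.60, adjusted p = 0.0222 from edgeR). The median was -3.68 and all 4 had an unadjusted p below 0.05. With DESeq2 4 were called lower, with library totals 3, and with edgeR without Perthes rabbit 1 again 4. The summed level of this list was 7.66 to 737 CPM against 2421 to 9607 CPM. Of 10 T and NK cell markers 7 were tested, and *NKG7*, a granule gene, fell while *IL7R*, the interleukin 7 receptor gene, rose (log2 fold change -3.50 and 3.01, adjusted p = 0.0284 and 0.0296 from edgeR). Their summed level was 24.3 to 181 CPM in Perthes rabbits, highest in rabbit 1, and 46.7 to 85.9 CPM in controls. Most of the level in rabbit 1 was *IL7R*, at 171 CPM. Without *IL7R*, a sum chosen after seeing the data, the list had 9.75 to 19.2 CPM in Perthes rabbits and 36.4 to 79.9 CPM in controls, which did not overlap. Without *NKG7* as well it had 4.62 to 15.3 CPM against 9.59 to 21.0 CPM, which did. The calls of *CEBPE*, *NKG7* and *IL7R* were lost without Perthes rabbit 3 or 5 or control rabbit 1 or 2, and that of *IL7R* also without control rabbit 3.

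Of the 8 markers of stroma and bone, 0 were called by edgeR (1 lower and 1 higher at an unadjusted p below 0.05, and 0 and 1 with DESeq2), with a median log2 fold change of -0.05. The most abundant, *COL1A1* and *COL1A2*, had log2 fold changes of 0.15 and 0.20 (adjusted p = 0.842 and 0.761 from edgeR). Of 6 cartilage markers 5 were tested and 0 were called (0 lower and 1 higher at an unadjusted p below 0.05, and 0 and 0 with DESeq2), with a median of 1.02. *COL2A1* and *ACAN* had 0.34 and 1.08 (adjusted p = 0.671 and 0.146 from edgeR). The summed cartilage level was highest in Perthes rabbit 4, at 132098 CPM, and lowest in Perthes rabbit 1, at 32840 CPM.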
